A study of Homo sapiens with 6 samples.

Results

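The genes described are the box H/ACA and small Cajal body RNAs, taken as every gene of the array annotation whose symbol begins with SNORA or SCARNA. There are 77 of them, 61 SNORA and 16 SCARNA genes, among 18404 genes with a single symbol on the array. The cells were SNU-398, a human cell line established from a hepatocellular carcinoma, and 6 Affymetrix arrays were hybridised. In 3 arrays the cells had received a control short hairpin RNA (shRNA) of scrambled sequence, and in 3 an shRNA that targets SALL4, which encodes a transcription factor with zinc fingers, active in stem cells of the early embryo. Both groups grew in RPMI medium with 10% fetal bovine serum, 6 ug of total RNA were labelled with biotin, and each group's 3 arrays are titled as biological replicates. A second hairpin or a rescue is not among the samples, so what the hairpin does beyond lowering SALL4 cannot be told apart here. The symbols alone decide membership, but these RNAs were proposed with the SALL4 shRNA minus scrambled difference of some of them already known. Their differences in that comparison are therefore given as a description. Limma calls among them are listed beside the shares of all genes, and nothing is read from those calls as a test of these RNAs.

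Box H/ACA RNAs are short, folded RNAs of the nucleolus that pair with ribosomal RNA and guide the conversion of chosen uridines to pseudouridine by the enzyme dyskerin. Small Cajal body RNAs do the same kind of work on the RNAs of the spliceosome, in nuclear structures called Cajal bodies; some of them are of the H/ACA type, some of the box C/D type that guides ribose methylation, and some, such as SCARNA10 (U85), carry both. In human cells nearly all are cut out of introns of host genes, many of which make ribosomal proteins or other parts of the translation machinery, so a small RNA and its host's mRNA start as the same transcript and are then processed apart.

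No sequence of the small RNAs themselves was used here. The transcript starts of hosts are shown instead for the small RNAs that were lower on every SALL4 shRNA array, because those RNAs begin life in the host's transcript and because 5 of the 6 such RNAs past the intensity filter lie in a ribosomal protein gene or the pseudogene RPL32P3. The table of start regions (RefSeq, GRCh38.p14) held 5 of the 6 hosts. The lines run 5′ to 3′ from 35 bases before the annotated start to 15 bases from it on, and capitals mark an unbroken run of pyrimidines that opens with C exactly at the start, the 5′ terminal oligopyrimidine feature of translation genes.
RPSA (host of SNORA6, chr3:39406685-39406734, + strand): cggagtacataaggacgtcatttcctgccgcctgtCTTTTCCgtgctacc
RPS12 (host of SNORA33, chr6:132814534-132814583, + strand): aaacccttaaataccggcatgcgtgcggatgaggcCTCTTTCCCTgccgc
RPL27A (host of SNORA3A, chr11:8682757-8682806, + strand): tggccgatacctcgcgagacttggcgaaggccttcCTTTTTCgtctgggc
RPL12 (host of SNORA65, chr9:127451392-127451441, - strand): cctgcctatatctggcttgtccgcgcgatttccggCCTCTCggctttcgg
SNHG17 (host of SNORA71A, chr20:38435314-38435363, - strand): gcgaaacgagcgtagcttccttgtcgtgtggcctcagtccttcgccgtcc
The pyrimidine run was 7 bases long in RPSA, 10 in RPS12, 7 in RPL27A and 6 in RPL12, and SNHG17 had none. A run of at least 5 bases that opens with C at the start was present in 14 of 55 hosts with a start region (25.5%), in 7 of 7 ribosomal protein hosts and in 4.01% of all 27305 genes of the table. It is a property of these genes' annotation, not a measurement of these cells.

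Whole-series values come first. Array medians lay between 47.85 and 51.69, the lowest value on each array was 10, and 15.5% to 16.9% of the probe sets of an array lay at that floor. The targeted gene, SALL4, fell from 294 ± 36.8 on the scrambled arrays to 119 ± 1.67 on the others (SD, n = 3 each), a log2 difference of -1.30 ± 0.18 (SE; limma adjusted p 0.0108). On principal component analysis the groups parted along the first axis (37% of the variance), and the second (20.1%) set scrambled replicate 3 (18) and SALL4 shRNA replicate 2 (23.6) apart from the other arrays (-16.7 to -1.12). Of 10 measured hepatocyte and hepatoma markers 6 passed the intensity filter. Summed over all 10 markers, intensities were 477 to 529 and 466 to 557 in the scrambled and SALL4 shRNA groups. The brightest were GPC3 (mean intensity 155 and 144 in the groups), KRT18 (99.8 and 102) and APOA1 (71.8 and 60). Albumin (ALB, 11.2 and 12.1) and AFP (15 and 13.5) were near the floor, so these defining markers of liver cells were barely detected. None of 5 blood markers (79 to 89 and 84 to 94) or 4 endothelial markers (85 to 93 and 80 to 106) passed the filter, and the blood genes PTPRC and LYZ were at the floor on all arrays. All 6 fibroblast and stellate markers passed it (1286 to 1444 and 1006 to 1368). They went both ways, with 3 negative and 3 positive log2 differences and a median of 0.12, and 1, DCN, was called lower. Their part in the results was not tested.

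The small RNAs were mostly dim. Of the 77, 21 had a scrambled mean of at least 100 and 3 of at least 300, whereas 27 were under 32. At the floor of 10 were 3 (SNORA69, SNORA70F and SCARNA23) on all 6 arrays and 8 on some arrays; 66 were above it on every array. The fit took genes whose log2 intensity averaged 5 or more (an intensity of 32) over all 6 arrays, and 46 of the 77 passed (59.7%), 36 SNORA and 10 SCARNA genes, against 72.4% of all genes; none of the 46 had a value at the floor. Just inside this filter was SNORA60 (mean log2 intensity 5.00) and just outside it SCARNA10 (4.91). Replicates of these RNAs were also less alike than those of other genes. The median residual SD of the 46 was 0.395 on the log2 scale, against 0.245 for all 13325 genes of the fit. Intensities of different probe sets depend on their probes as well as on the RNA, so the order of brightness is an order of signals, not of abundance.

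SCARNA9, a Cajal body RNA in the gene CEP295, gave the brightest signal of the 77. Its intensity was 973, 636 and 613 on the scrambled arrays and 888, 519 and 1074 on the SALL4 shRNA arrays. The groups overlapped, with a log2 difference of 0.13 ± 0.28 (SE). A second, dimmer probe set of SCARNA9 read 66.1, 149 and 72 against 44.9, 37.9 and 115, a difference of -0.62 in the other direction, again with overlapping groups. SCARNA9L, a copy of SCARNA9 inside EIF1AX, was at 340, 300 and 212 with the scrambled and at 240, 125 and 131 with the SALL4 shRNA. Only its first SALL4 shRNA array reached into the scrambled range, and its log2 difference was -0.82 ± 0.27. A dimmer probe set of SCARNA9L read 12, 66.9 and 29.9 against 29.7, 20.3 and 24.2, a difference of -0.24 with overlapping groups, and the mean over both was -0.53. Copies this alike can share signal, so the split between SCARNA9 and SCARNA9L is uncertain.

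The next brightest were SNORA guides. SNORA3B, in the ribosomal protein gene RPL27A, was at 393, 470 and 382 and at 422, 341 and 541 (log2 difference 0.05 ± 0.21). SNORA80E, in KHDC4, was at 200, 351 and 373 and at 229, 289 and 238 (-0.24 ± 0.25). SNORA10, in RPS2, was at 249, 283 and 226 and at 113, 317 and 310, so that a single SALL4 shRNA array lay below the scrambled range and the others above it. All 3 overlapped between the groups. SNORA71D read 118, 157 and 469 on the scrambled arrays and 115, 123 and 117 on the others; its log2 difference of -0.80 ± 0.39 was -0.20 without scrambled replicate 3. SNORA50A, in CNOT1, was likewise high on scrambled replicate 3 alone (41.1, 117 and 352 against 102, 82.8 and 53.8), and its difference of -0.64 ± 0.56 became 0.14 without that array. SNORA71C, at 181 ± 50.8 and 150 ± 8.90 (SD, n = 3 each), and SNORA67, in the helicase gene EIF4A1, at 162 ± 13.7 and 148 ± 39.3, complete the 10 brightest together with SNORA33, which is described below.

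**Figure D1:**
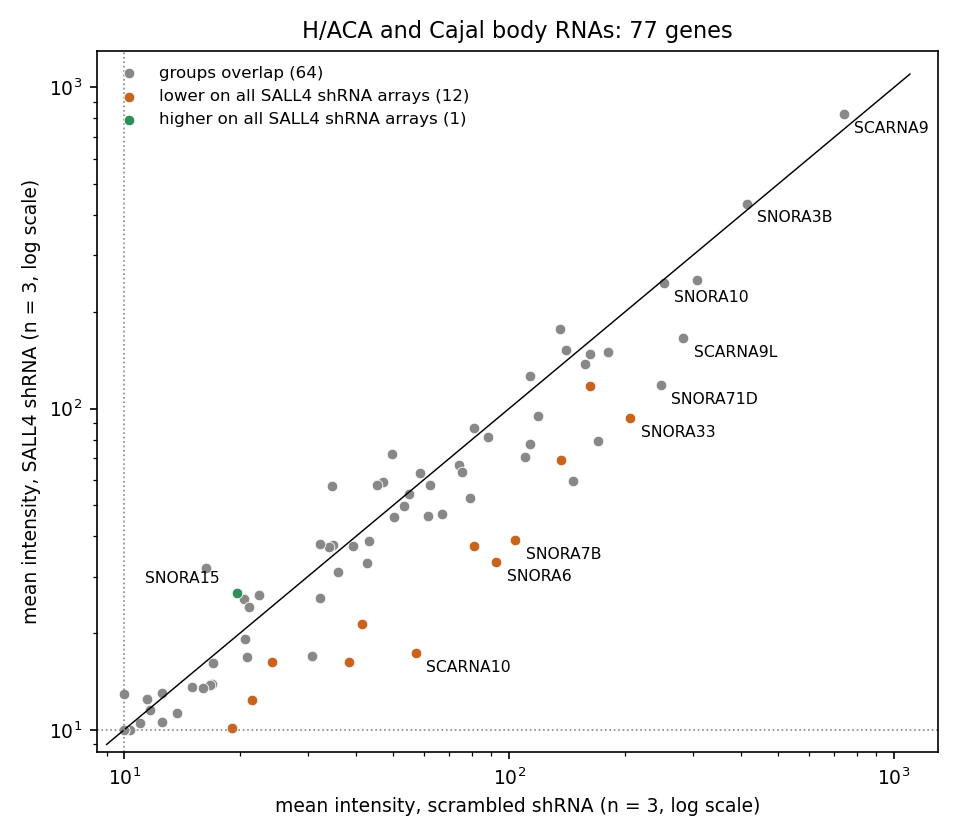
Mean intensity of each of the 77 small RNA genes with the SALL4 shRNA (vertical axis) against the scrambled shRNA (horizontal axis), both on log scales, n = 3 arrays a group; the line marks equality and the dotted lines the floor of 10. The brightest RNAs, SCARNA9 and SNORA3B, lie at the line, while 12 RNAs lie below it with groups that do not overlap and 1, SNORA15, lies above it.

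Across the 46 RNAs past the filter, differences leaned downward by a small amount. Of them 30 had a negative and 16 a positive log2 difference, with a median of -0.16, quartiles of -0.49 and 0.09 and a range from -1.48 to 0.42; the median of all genes in the fit was 0.02, and 47.7% of them were negative. Relative to the scrambled mean, the median of the 46 was -0.15, -0.28 and -0.22 on SALL4 shRNA arrays 1, 2 and 3, and -0.11, 0.17 and -0.11 on scrambled arrays 1, 2 and 3. All SALL4 shRNA arrays were thus lower than any scrambled array, although scrambled replicates 1 and 3 came close to SALL4 shRNA replicate 1. In 6 of the 46 (13%) every SALL4 shRNA array was below every scrambled array, against 10.8% of all genes in the fit, and in 0 of 46 was it the reverse, against 11.5%. A log2 difference of -1 or less was seen in 6 of the 46 against 1.16% of all genes, and 1 or more in 0 of them against 0.488%.

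In the limma fit across all genes 2 of the 46 RNAs, SNORA6 and SNORA7B, passed an adjusted p of 0.05 as lower, where 1.05% of all genes did, and 0 passed as higher, where 0.6% did (1.65% in either direction). An unadjusted p below 0.05 was reached by 10 as lower, against 8.68% of all genes, and by 0 as higher, against 8.08%. Since the comparison was used in choosing these RNAs, nothing is read from those counts. Which RNAs pass also depends on the fit. In the unfiltered limma fit, as in the filtered fits without SALL4 shRNA replicate 2 or 3 or without scrambled replicate 2 or 3, 0 of the RNAs passed. Without scrambled replicate 1 the only one was SNORA27, and without SALL4 shRNA replicate 1 the only one was SCARNA10. Over all arrays SCARNA10 was below the filter, with a mean log2 intensity of 4.91. Leaving out an array of the group where it was low lifted its mean past the filter. Its entry thus depended on the groups, and nothing is read from that call.

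SNORA6, which lies inside the ribosomal protein gene RPSA, had the largest negative difference past the filter. It was at 68.2, 135 and 74.5 on the scrambled arrays and at 38.9, 40.9 and 20.1 on the SALL4 shRNA arrays. The groups did not overlap, and the log2 difference was -1.48 ± 0.31 (SE), from -1.66 to -1.15 when any 1 array was left out. SNORA62, also inside RPSA, showed nothing similar. It read 13.3, 56 and 81.5 against 70.8, 43.3 and 24.1, scattered over the same range in both groups, and its log2 difference was 0.09 ± 0.55.

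SNORA7B, in the transcribed pseudogene RPL32P3, was at 126, 116 and 69.5 with the scrambled and at 48, 47.2 and 21.8 with the SALL4 shRNA. The log2 difference was -1.45 ± 0.32 (SE), and it lay between -1.72 and -1.08 without any 1 array. SNORA7B has a close copy, SNORA7A, in the ribosomal protein gene RPL32; the copy is not among the 77 genes, and whether it adds to this signal was not tested.

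SNORA33, in RPS12, was at 330, 143 and 146 and at 101, 53.1 and 127, a log2 difference of -1.12 ± 0.36 (SE). The high scrambled replicate 1 carries part of it, and without that array the difference was -0.72. SNORA3A, in RPL27A beside SNORA3B, was at 104, 136 and 168 and at 75.8, 99.1 and 32.2 (-1.10 ± 0.35). Only a narrow gap separated its groups, and without SALL4 shRNA replicate 3 the difference was -0.62. SNORA65, in RPL12, was at 61.2, 117 and 65.2 and at 41.6, 29.8 and 40.8 (-1.07 ± 0.26), with all SALL4 shRNA arrays below a scrambled range that replicate 2 stretched upward.

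SNORA71A was the only one of the 6 with non-overlapping groups whose host is neither a ribosomal protein gene nor RPL32P3. It comes from SNHG17, a noncoding host of several SNORA71 copies, and was at 174, 162 and 150 and at 131, 86.7 and 135, a log2 difference of -0.49 ± 0.21 (SE), or -0.28 without SALL4 shRNA replicate 2. Its neighbours in that host, SNORA71C (-0.23 ± 0.22) and SNORA71D, overlapped between the groups. SNORA27, in the ribosomal protein gene RPL21 and named after its values were seen, had a larger difference (-1.13 ± 0.41) but overlapping groups: 55.3, 179 and 205 against 45.3, 52.6 and 80.5.

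**Figure D2:**
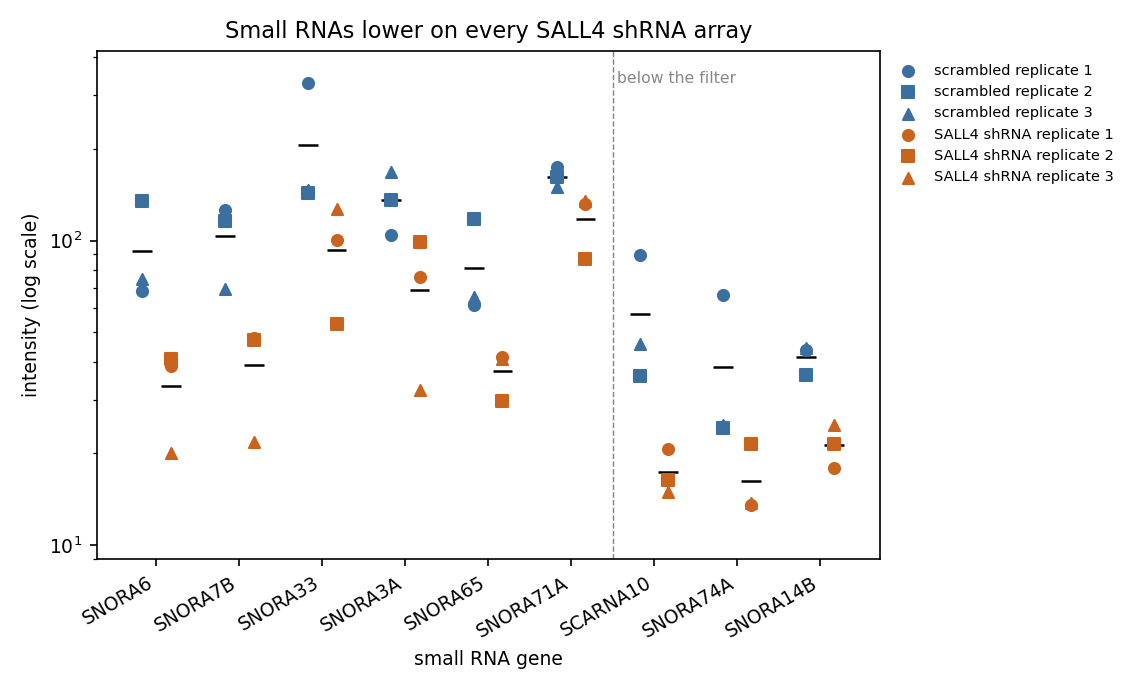
Intensity on each array (log scale) of the 6 small RNAs past the filter that were lower on every SALL4 shRNA array, and of 3 that pass only the group-wise filter; symbols mark replicates and short lines the group means (n = 3). SNORA6 and SNORA7B have the largest negative log2 differences among the 6, and SCARNA10 was at 15 to 20.7 on the SALL4 shRNA arrays.

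Grouped by host, which was done after the values were seen and is a description only, the 12 RNAs past the filter in ribosomal protein genes or RPL32P3 had a median log2 difference of -0.62, and the 34 in other hosts a median of -0.13. All 6 RNAs at -1 or less were among the 12 and 0 among the 34. Groups did not overlap, with lower values, in 5 of the 12 (41.7%) and 1 of the 34 (2.94%), against 10.8% of all genes. The genes for ribosomal proteins themselves also leaned downward. Of 63 in the fit, 51 had a negative and 12 a positive log2 difference, with a median of -0.16. Their groups did not overlap in 22 with lower values (34.9%) and in 1 with higher values. The small RNAs were not tested against these genes. Array by array, the median of the 12 relative to the scrambled mean was -0.86, -0.40 and -0.62 on SALL4 shRNA arrays 1, 2 and 3, and -0.22, 0.20 and -0.13 on scrambled arrays 1, 2 and 3. The 12 were uneven among themselves. SNORA3B (0.05), SNORA52 in RPLP2 (-0.06) and SNORA62 (0.09) were near 0 on the log2 scale, and SNORA3A and SNORA3B differed although they share a host. The median residual SD was 0.56 in the 12 and 0.372 in the 34, so the RNAs with large differences were also among the more variable.

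**Figure D3:**
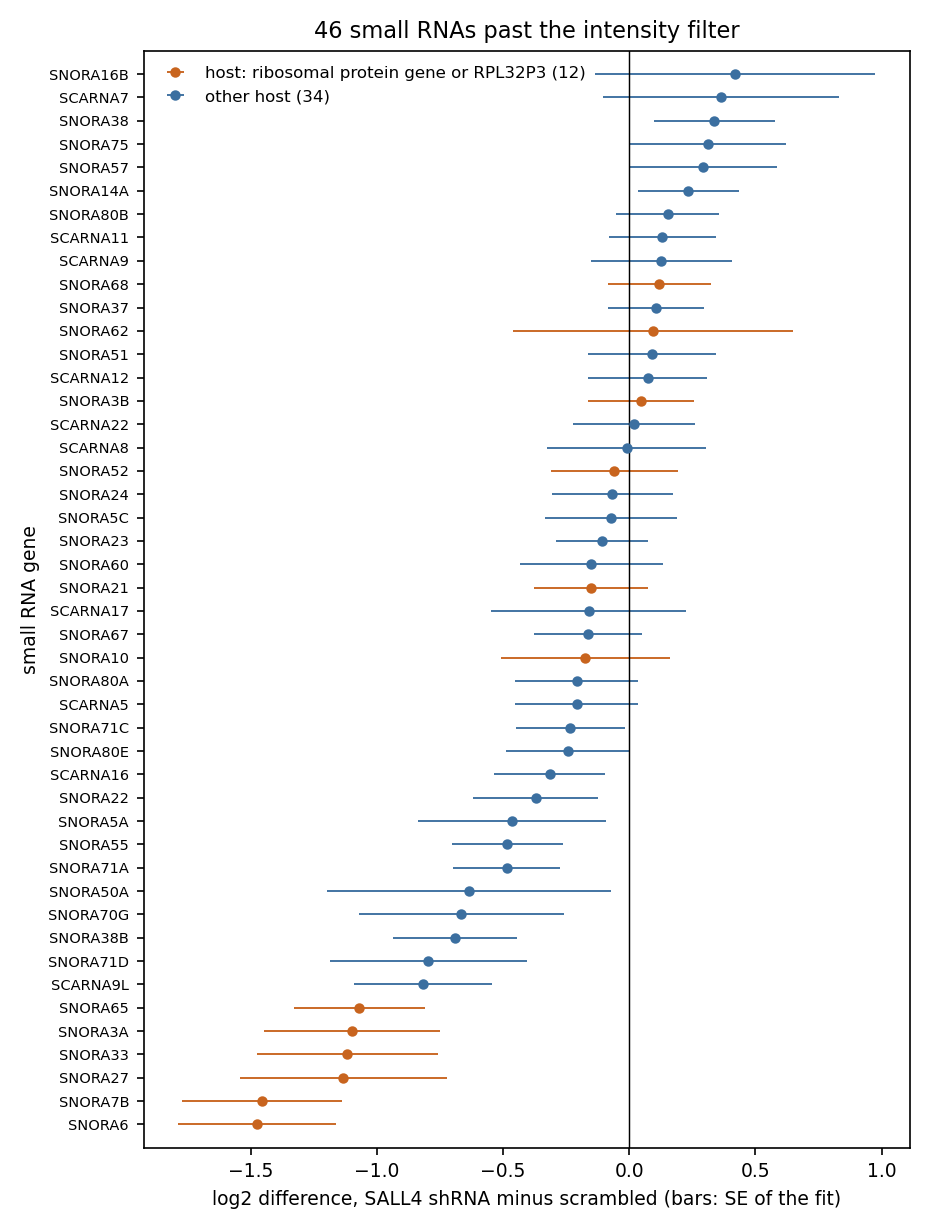
Log2 difference, SALL4 shRNA minus scrambled, of the 46 small RNAs past the filter, sorted; bars are the standard error (SE) of the fit, and orange marks RNAs whose host is a ribosomal protein gene or RPL32P3. The 6 RNAs at -1 or less are all orange, and the highest value is 0.42.

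The Cajal body RNAs past the filter showed no common direction. Of 10, 5 had a negative and 5 a positive log2 difference, and the median was 0.00. Groups that did not overlap were found in 0 of the 10, where the shares over all genes, 10.8% lower and 11.5% higher, would give about 1 each way, so that count says little. SCARNA12, in PHB2, was at 136, 157 and 128 and at 142, 206 and 108 (0.07 ± 0.24, SE). SCARNA16, in the noncoding host SNHG20, was at 141, 88 and 128 and at 111, 88.7 and 84.4 (-0.31 ± 0.22). SCARNA7, in the importin gene KPNA4, was raised on SALL4 shRNA replicate 2 alone (40.9, 140 and 35.9, against 26.1, 52.4 and 70.4), and its difference of 0.36 ± 0.47 became -0.26 without that array and -0.04 without scrambled replicate 1.

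SCARNA17 had a single high array in the scrambled group by its brighter probe set (116, 38.6 and 30.3 against 41.7, 51.2 and 45.4), and its dimmer probe set also read highest there (84.4, 26.7 and 33 against 32.9, 42.5 and 70). The log2 differences of these probe sets were -0.16 and 0.13, and that of the brighter became 0.43 without scrambled replicate 1. SCARNA5, in the autophagy gene ATG16L1, was at -0.21 ± 0.24 (SE), SCARNA8 at -0.01 ± 0.32, SCARNA11 at 0.13 ± 0.21 and SCARNA22 at 0.02 ± 0.24. SCARNA6, which shares ATG16L1 with SCARNA5, lay below the filter at 21.1 ± 8.08 and 24.1 ± 12 (SD, n = 3 each), and SCARNA4, which shares KHDC4 with SNORA80E, was near the floor at 12.5 ± 2.19 and 10.6 ± 0.74.

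SCARNA10, in the condensin gene NCAPD2, had the largest negative difference of all 77 but a mean under the filter. It was at 89.8, 35.9 and 45.8 on the scrambled arrays and at 20.7, 16.4 and 15 on the SALL4 shRNA arrays. The groups did not overlap, and the log2 difference was -1.62, between -1.90 and -1.24 without any 1 array. A filter that asks for the mean in at least 1 group, in place of over all arrays, admits it through its scrambled group alone; such a gene had to differ, so no count over the RNAs that this filter adds is given as support. SNORA14B (43.8, 36.1 and 44.3 against 17.9, 21.4 and 24.8, log2 difference -0.96) and SNORA74A (66.2, 24.3 and 24.8 against 13.5, 21.5 and 13.8, -1.11), from the noncoding host SNHG4, enter in the same way. The high scrambled replicate 1 carries much of the SNORA74A difference, which was -0.63 without that array.

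Among the 31 RNAs below the filter, groups did not overlap in 6 with lower values, against 6.32% of all genes below it, and in 1 with higher values, against 4.45%. Besides the 3 just named, the lower ones were SNORA13 (21.5 ± 4.23 and 12.4 ± 2.14, SD, n = 3 each), SNORA70E (24.2 ± 3.64 and 16.3 ± 2.11) and SNORA19. SNORA19, in the initiation factor gene EIF3A, read 19.6, 18.6 and 18.8 against 10.4, 10 and 10, so 2 of its SALL4 shRNA arrays were at the floor and its size of change is only a bound. SNORA15, in the chaperonin gene CCT6A, was the 1 higher RNA by its brighter probe set, at 20.7, 21.2 and 17.1 against 23.8, 28.9 and 27.3; its other probe set was at the floor on 5 of 6 arrays. SNORA46, which shares CNOT1 with SNORA50A, was at 17 ± 4.80 and 16.2 ± 2.61.

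For the host genes the question was whether a small RNA and its host's mRNA differed alike. All 77 RNAs lie inside a gene in the RefSeq table (GRCh38.p14; strand was not used), and for 56 RNAs that gene, 1 of 47, was measured by a probe set of its own. Groups did not overlap in 13 of the 46 hosts in the fit with lower values (28.3%) and in 4 with higher values (8.7%). The shares over all genes were 10.8% lower and 11.5% higher. In limma 2 of these 46 hosts were called lower, against 1.05% of all genes, and 0 higher, against 0.6%. Unadjusted, 9 lower and 2 higher hosts had p below 0.05, against 8.68% and 8.08% of all genes. NSD2, a histone methyltransferase gene, fell from 240 ± 8.54 to 132 ± 23.1 (SD, n = 3 each; log2 change -0.88 ± 0.19, SE; adjusted p 0.0459), while SCARNA22 inside it was at 0.02. RPL23, a ribosomal protein gene, fell from 176 ± 26.9 to 90.6 ± 21.3 (-0.97 ± 0.22; adjusted p 0.0497), while SNORA21 inside it was at 43.3 ± 10.5 and 38.7 ± 8.06, a difference of -0.15 ± 0.23. Both calls were lost without any 1 array, with limma adjusted p from 0.072 to 0.137 for NSD2 and from 0.0503 to 0.157 for RPL23.

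For the RNAs with large negative differences, measured hosts differed less, and not all alike. The host RPL12 was at 4717 ± 407 and 4191 ± 476 (SD, n = 3 each; log2 difference -0.17 ± 0.18, SE; limma adjusted p 0.693) and RPL27A at 953 ± 157 and 909 ± 73.7 (-0.06 ± 0.19; adjusted p 0.918), beside -1.07 for SNORA65 and -1.10 for SNORA3A. These hosts have further probe sets, and the mean over all of them was -0.36 for RPL12 and 0.21 for RPL27A. SNHG17, host of SNORA71A (-0.49), was at -0.02 ± 0.20 (limma adjusted p 0.973) by its brighter probe set. The mean over its probe sets was -0.45, so how near SNHG17 came to SNORA71A depends on the probe set. RPL32P3, host of SNORA7B, was at -0.43 ± 0.18 (limma adjusted p 0.263) and NCAPD2, a condensin subunit gene and host of SCARNA10, at -0.68 ± 0.21 (0.123); in both, every SALL4 shRNA array was below every scrambled array, as for their small RNAs. Some hosts went the other way. EIF1AX, host of SCARNA9L (-0.82), was at 0.46 ± 0.23 (limma adjusted p 0.343), or 0.20 as the mean over its probe sets. NOL11, host of SNORA38B (-0.69), was at 0.32 ± 0.20 (limma adjusted p 0.467). Both hosts overlapped between the groups. RPSA, RPS12 and RPL21 had no probe set of their own. Over 30 pairs with RNA and host both in the fit, from 27 hosts, 11 were lower in both, 6 higher in both, 8 had a lower RNA with a higher host and 5 a higher RNA with a lower host. Pearson's r over the pairs was 0.23 and Spearman's rho 0.28; all points share the same 6 arrays and some share a host, so this is a description. Whether a probe set for an intronic RNA reads the mature RNA or the unspliced host transcript cannot be told apart here, nor can fewer copies per cell from fewer cells that make the RNA.

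**Figure D4:**
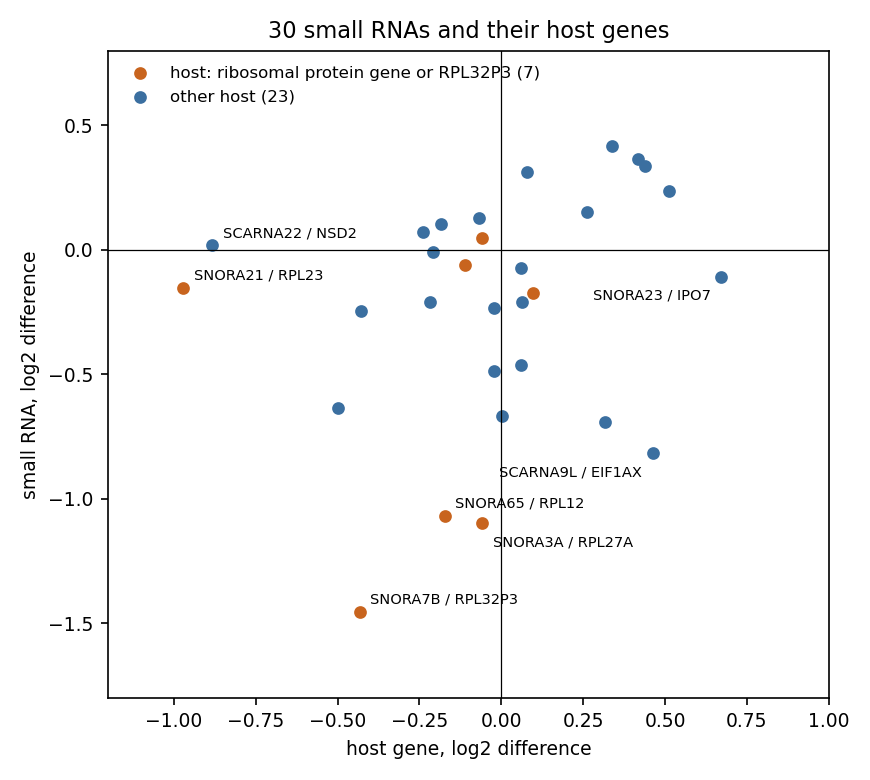
Log2 difference (SALL4 shRNA minus scrambled) of 30 small RNAs against that of their measured host genes, with RNAs in ribosomal protein genes or RPL32P3 in orange. SNORA65 and SNORA3A lie at -1.07 and -1.10 over hosts at -0.17 and -0.06 by their brightest probe sets, and SNORA21 and SCARNA22 lie near 0 over the hosts RPL23 and NSD2, which fell.

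Proteins of the H/ACA particle and of Cajal bodies, with telomerase and 3′ maturation factors, were measured in 34 genes, all in the fit. This list is wider than the proteins that bind and build these RNAs, as 20 genes are of the Cajal body and telomerase group. Groups did not overlap in 11 of the 34 with lower values (32.4%) and in 4 with higher values (11.8%). The shares over all genes were 10.8% and 11.5%. Among 4 core and 7 assembly genes, 1 and 2 did not overlap with lower values, and 0 with higher values. Limma called 1 lower, against 1.05% of all genes, and 0 higher, against 0.6%; 8 lower and 3 higher had an unadjusted p under 0.05, against 8.68% and 8.08% of all genes, and the median log2 difference was -0.03. The call was RUVBL1, a helicase of the chaperone complex that assembles the particles, which fell from 387, 406 and 420 on the scrambled arrays to 227, 162 and 113 on the SALL4 shRNA arrays. On the log2 scale the change amounted to -1.33 ± 0.24 (SE; limma adjusted p 0.0239). When 1 array was left out it passed only without SALL4 shRNA replicate 1, with adjusted p from 0.0193 to 0.0833 over the 6 fits. Its partner helicase gene RUVBL2 was at -0.21 ± 0.18 (adjusted p 0.612).

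The core proteins did not pass. DKC1, the pseudouridine synthase dyskerin, averaged 787 ± 51.5 with the scrambled and 623 ± 77.7 with the SALL4 shRNA (SD, n = 3 each). The log2 difference was -0.34 ± 0.18 (SE, limma adjusted p 0.38), although every SALL4 shRNA array was below every scrambled array. NHP2 was at 0.35 ± 0.21, NOP10 at 0.35 ± 0.19 and GAR1 at -0.04 ± 0.18, with adjusted p from 0.402 to 0.95, and in 0 of the 4 core genes was the unadjusted p under 0.05. The assembly factor NAF1, which holds the place of GAR1 in the immature particle, was at 83 ± 6.58 and 57.9 ± 17.2 (-0.56 ± 0.23; adjusted p 0.25), and SHQ1, the chaperone of dyskerin, at 0.18 ± 0.26 (0.787).

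In the Cajal body, COIL, which encodes the scaffold protein coilin, averaged 698 ± 90.4 and 445 ± 142 in the groups (SD, n = 3 each). The log2 difference was -0.70 ± 0.25 (SE, limma adjusted p 0.185). COIL was among the 11 protein genes with lower values and groups that did not overlap. WRAP53, which carries these RNAs to Cajal bodies, was at 0.32 ± 0.27 (adjusted p 0.604). Of 4 factors that mature the 3′ ends of such RNAs (PARN, EXOSC10, TOE1 and TENT4B) 0 passed, with 2 at an unadjusted p under 0.05: PARN, a deadenylase, at -0.46 ± 0.18 (adjusted p 0.22) and the exosome nuclease gene EXOSC10 at -0.45 ± 0.18 (0.24). TERC, the telomerase RNA, which ends in an H/ACA domain, was at 51.9 ± 12.5 and 45.5 ± 2.93, a difference of -0.17 ± 0.21 (0.742).

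Values of other short RNAs are given for comparison only, and a general loss of short transcripts was not tested. Of 11 such RNAs measured (telomerase, RNase P and MRP, minor spliceosomal, Y and vault RNAs) 8 were in the fit, 4 with a negative and 4 with a positive log2 difference, a median of 0.01 and a range from -0.74 to 0.88; limma called 0, with 2 at an unadjusted p under 0.05. The box C/D RNAs, 115 genes with SNORD symbols of which 57 were in the fit, had a median log2 difference of -0.44, with 40 negative and 17 positive. Groups did not overlap in 8 with lower and 2 with higher values (14% and 3.51%, against 10.8% and 11.5% of all genes). A log2 difference of -1 or less was seen in 11 of the 57 and 1 or more in 1, against 1.16% and 0.488% of all genes. Limma called 4 lower and 0 higher, against 1.05% and 0.6%. Unadjusted, 19 lower and 2 higher had p under 0.05, against 8.68% and 8.08%. The difference between these RNAs and the H/ACA and Cajal body RNAs was not tested.

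A further 27 probe sets name a SNORA or SCARNA gene together with another gene and enter none of the counts above. They carry 20 symbols that have no probe set of their own, so the 77 genes are not the whole family. Of the 21 that averaged a log2 intensity of 5 or more, 16 had a negative and 5 a positive log2 difference, with a median of -0.46 and a range from -1.75 to 0.19. Groups did not overlap in 4 with lower values, against 10.4% of all probe sets past the same filter, and in 0 with higher values, against 10.6%. In a limma fit of all 19506 such probe sets 1 of these was called, as lower, against 0.0308% of all, and 0 as higher, against 0.00513%.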

How the data were processed

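Gene expression was measured on Affymetrix arrays in 6 cultures, 3 a group. The authors deposited 1 table of intensity values on a linear scale; RMA is named in the submitters' processing notes, and its version and how a linear scale and the floor of 10 arose are not given in the sources used. A floor understates changes of dim RNAs. Log2 of each intensity was taken here. Of 32319 probe sets, 19158 have 1 gene symbol, 1388 several and 11773 none in the platform annotation supplied with the series; symbols were updated through Entrez identifiers (19128 matched), and the brightest probe set stood for each of 18404 genes. The annotation names no build, so its probe sets have no coordinates here.

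SALL4 shRNA minus scrambled was tested by limma 3.58.1 (R 4.3.3; lmFit, eBayes, two-sided, Benjamini-Hochberg over all genes, threshold 0.05) on the 13325 genes that averaged a log2 intensity of 5 or more over all 6 arrays. This filter does not use the groups, unlike one on the mean of either group, which was an alternative. The fit was tested on simulated data. An exact permutation test of 3 against 3 arrays cannot go below 0.1. The number of arrays limits the precision.

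The RNAs and lists were chosen with earlier results of these data known. Named RNAs are the 10 with the highest scrambled mean, the 10 largest falls and rises past the filter with non-overlapping groups (6 and 0 existed), SCARNA genes past the filter and RNAs that share their hosts, besides a few named after their values were seen. A host is the smallest gene whose span holds the RNA; the planned strand condition could not be applied. No per-sample column was left unused (0). RNA sequences of these genes were not used here.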

Additional observations from a re-analysis of the deposited data

How the results depend on the processing

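The median log2 difference of the RNAs kept its sign under every alternative listed in this paragraph, from -0.19 to -0.12 without any 1 array, -0.11 after quantile normalization, -0.22 with a mean log2 of at least 6 and -0.15 without scrambled replicate 3 and SALL4 shRNA replicate 2 together. The count of RNAs with non-overlapping groups, 6, was 3 with a mean log2 of at least 6, 13 with no filter, 15 without those 2 arrays together, and 9 to 13 without any 1 array; with fewer arrays groups separate more easily. Calls over all genes, 220, were 341 with a mean log2 of at least 6, 0 with no filter (2864 at an unadjusted p under 0.05), 486 with trend and robust settings, 7 in the fit of all probe sets, 20 without both arrays and 37 to 99 without any 1 array. SALL4 did not pass with no filter (-1.30, limma adjusted p 0.0946) or without both arrays (-1.20, 0.0691); without any 1 array it was between -1.38 and -1.20. Protein calls, 1, were 0 with no filter and without both arrays, and 0 to 1 without any 1 array. Host calls, 2, were 1 with the group-wise filter, 4 with trend and robust settings, 0 with no filter and without both arrays, and 0 to 0 without any 1 array. Fewer arrays leave fewer degrees of freedom; other causes were not tested.

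Replicate numbers are shared between the groups, but same-numbered arrays did not deviate together (r of 0, -0.085 and -0.041). With the replicate block limma called 37 genes, 0 proteins, 0 hosts and, of the RNAs, only SNORA7B. Of 303 recomputed values of single named RNAs past the filter, 25, in 12 of 24 RNAs, had the other sign. Low signal limits the 31 RNAs below the filter most.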
